A study of Mus musculus with 10 samples.

Results

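Hmga2, Hmga1, Lin28a, Igf2bp1, Igf2bp2 and Igf2bp3 are 6 mouse genes of the timing circuit that the microRNA let-7 joins together. They were chosen by name, and each was read from probe sets annotated to that gene alone. Where a gene had several, its values come from the one brightest on average in log2(signal + 16) over all arrays, and the others served as a check. A probe set of its own was found for 4 of the 6 genes, Hmga2, Lin28a, Igf2bp1 and Igf2bp3, among 18193 genes that had one. Hmga1 and Igf2bp2 were not analysed here.

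The arrays measured total RNA of embryonic mouse testis at 5 stages, from embryonic day E11.5 through E12.5, E14.5 and E16.5 to E18.5. Each stage had 2 arrays, and per the series' design text they came from separate preparations of testis. The sources used here do not give the strain, the number of embryos per preparation or whether the neighbouring mesonephros was taken off. No treatment or mutation is named in the labels, so the earliest stage is the baseline.

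LIN28A and LIN28B are RNA-binding proteins that hold back the maturation of let-7 by binding its precursors. Mature let-7 in turn represses mRNAs that carry sites for its seed, the bases that pair with a target, and in mammals Hmga2, Lin28a and the Igf2bp genes are well-known examples. HMGA2 binds AT-rich DNA and shapes chromatin in dividing embryonic cells, and the IGF2BP proteins bind mRNAs, that of the growth factor IGF2 among them. In mice Lin28a acts in primordial germ cells, the precursors of sperm and eggs, and loss of Hmga2 gives small animals with impaired sperm formation.

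No level of a mature microRNA is reported here, and the let-7 sequences are given only to show the circuit's other arm. All 11 entries for the 5p arm of the let-7 family in RefSeq (GRCm38.p6) hold the same seed, GAGGUAG, although the 9 distinct sequences differ outside it. Of these, 3 are printed 5′ to 3′ with the seed, bases 2 to 8, in capitals. They lie at chr13:48538239-48538260 on the minus strand, chr13:48536078-48536099 on the minus strand and chr9:106178846-106178867 on the plus strand.
mmu-let-7a-5p: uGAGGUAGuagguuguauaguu
mmu-let-7d-5p: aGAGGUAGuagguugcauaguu
mmu-let-7g-5p: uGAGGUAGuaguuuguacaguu

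LIN28 proteins are known to bind the letters GGAG in the loop of let-7 precursors. GGAG occurred somewhere in 9 of 12 let-7 hairpins, and in 44.5% of 1005 mouse hairpins in the same table. The whole hairpin was searched, so neither value is a count of loop sites. A hairpin with GGAG and one without it show the difference, with GGAG in capitals. Mirlet7g lies at chr9:106178840-106178927 on the plus strand and Mirlet7b at chr15:85707319-85707403 on the plus strand.
Mirlet7g: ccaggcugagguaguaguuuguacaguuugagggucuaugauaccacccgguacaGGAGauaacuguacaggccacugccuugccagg
Mirlet7b: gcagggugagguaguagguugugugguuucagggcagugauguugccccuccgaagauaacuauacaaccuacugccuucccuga

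Since all 4 measured genes were lower in E18.5 against E11.5, if not in step, their start regions are shown as well. RefSeq's table gave a window of 250 bases before to 50 bases after the start for 3 of the 4 genes. The windows are Hmga2 at chr10:120476420-120476719, Lin28a at chr4:134018767-134019066 and Igf2bp3 at chr6:49214905-49215204, all on the minus strand of GRCm38.p6. Capitals mark exact matches, on either strand, to the GC box (GGGCGG) or the E-box (CACGTG).
Hmga2: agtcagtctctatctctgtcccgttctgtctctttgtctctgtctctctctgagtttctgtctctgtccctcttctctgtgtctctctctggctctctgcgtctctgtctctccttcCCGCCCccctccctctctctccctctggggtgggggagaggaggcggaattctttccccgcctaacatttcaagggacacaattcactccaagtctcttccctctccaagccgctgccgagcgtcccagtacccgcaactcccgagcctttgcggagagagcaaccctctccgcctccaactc
Lin28a: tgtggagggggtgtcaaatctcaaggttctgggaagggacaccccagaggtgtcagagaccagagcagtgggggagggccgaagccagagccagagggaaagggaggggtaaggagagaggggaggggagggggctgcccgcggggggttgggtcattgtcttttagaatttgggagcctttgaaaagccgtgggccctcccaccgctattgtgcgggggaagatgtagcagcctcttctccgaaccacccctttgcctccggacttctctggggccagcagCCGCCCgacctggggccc
Igf2bp3: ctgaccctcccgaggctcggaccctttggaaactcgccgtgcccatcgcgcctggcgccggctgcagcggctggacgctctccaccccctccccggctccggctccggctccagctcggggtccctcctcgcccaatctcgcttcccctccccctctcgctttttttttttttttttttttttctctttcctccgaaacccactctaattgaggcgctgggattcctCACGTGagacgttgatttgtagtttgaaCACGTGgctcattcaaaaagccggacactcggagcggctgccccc

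Hmga2 and Lin28a each held 1 GC box, which 35.7% of 32851 mouse windows of the same length hold. Igf2bp3 held none, but it held 2 E-boxes that do not overlap, a motif found in 7.15% of windows. TATAAA was in none of these 3 windows and in 13.6% of all windows. The Hmga2 window also carries a run of 23 pyrimidines and the Igf2bp3 window a run of 35. The motifs were picked after the sequences had been seen, so the matches describe the windows and nothing more.

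All arrays had the same trimmed mean signal of 125, with medians between 35.2 and 57.7, and precision is limited by there being 2 arrays per stage. The arrays were scanned on 3 days, with E14.5 alone, E12.5 with E16.5, and E11.5 with E18.5. The hybridised arrays were washed on one pair of fluidics modules for E16.5 and E18.5 and on another pair for E11.5, E12.5 and E14.5, so module and stage cannot be told apart in any comparison across E14.5 and E16.5. Testis markers appeared with age: Amh, the Sertoli cell hormone, had signals of 222.3 and 506.3 at E18.5, against 4.7 and 4.8 at E11.5. Cyp17a1, a steroid enzyme of fetal Leydig cells, had signals of 3862.2 and 3078.3 at E18.5, against 6.4 and 6.1 at E11.5. All 5 tested Leydig markers and 7 of 9 tested Sertoli markers rose in E18.5 against E11.5, beside 17.1% of all tested genes. Among the Sertoli markers Fgf9 fell. At E11.5 both Amh and Cyp17a1 were near the bottom of the scale. Sox9, the Sertoli cell transcription factor, read 101.1 and 166.2 at E18.5, against 198.7 and 199.2 at E11.5 (adjusted p = 0.0912).

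All 4 measured genes changed over the 5 stages in limma's moderated F test on log2(signal + 16), adjusted over 10916 tested genes. A change was called at an adjusted p under 0.05, and 34.7% of all tested genes passed. The adjusted p was 2.37e-10 for Hmga2, 2.53e-06 for Igf2bp1, 0.00076 for Lin28a and 0.00313 for Igf2bp3. In E18.5 against E11.5 all 4 genes fell, beside 11.0% of tested genes. Their sizes ranged from -5.69 log2 units in Hmga2 to -1.005 in Lin28a. Adding 16 before the logarithm makes the fold changes of dim probe sets too small. The arrays measure bulk tissue, where fewer cells of a type and less RNA per cell cannot be told apart.

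**Figure D1:**
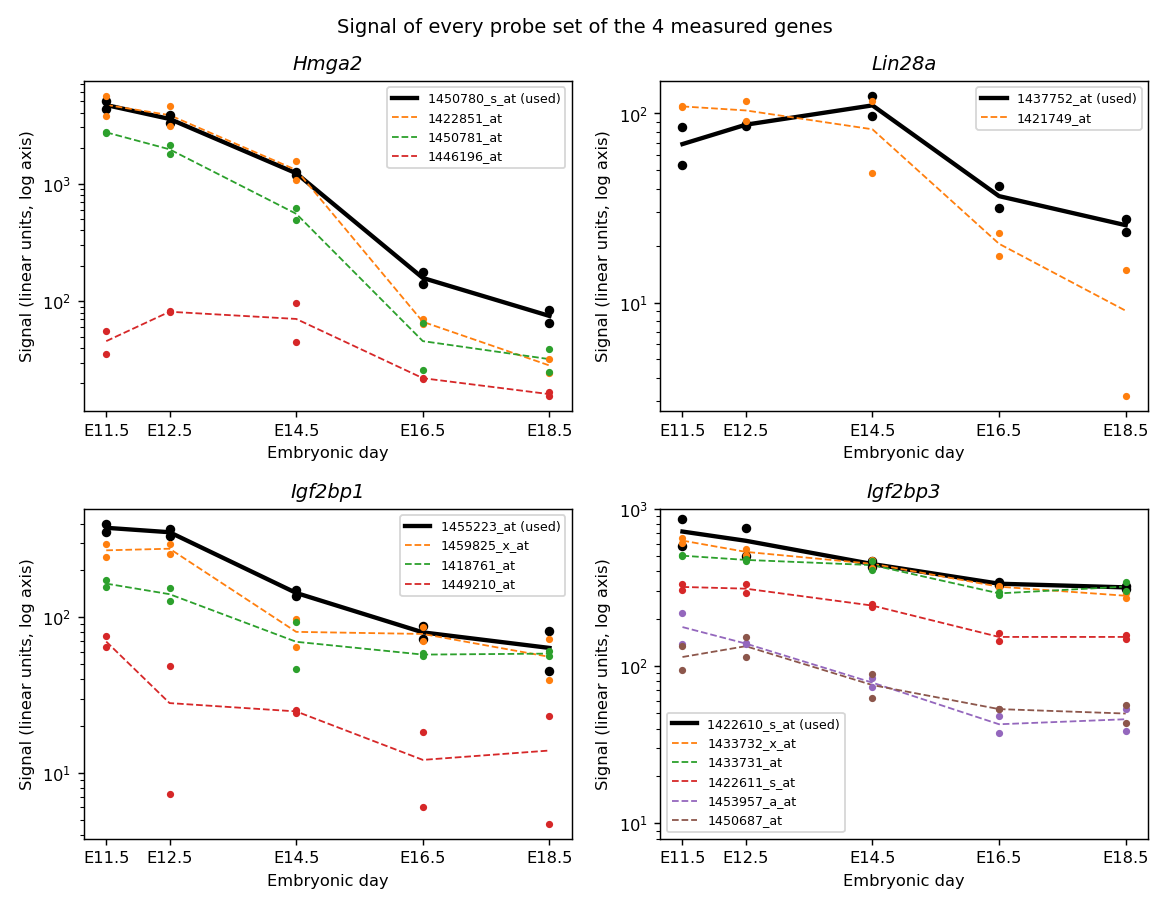
Signal (linear units on a log axis) against embryonic day for every probe set of Hmga2, Lin28a, Igf2bp1 and Igf2bp3, with dots for arrays, lines for the mean of 2 arrays and the thick black line for the probe set used. The used Hmga2 line drops to a mean of 74.9 at E18.5, against 4654 at E11.5, whereas the used Lin28a line is highest at E14.5, at 110.4.

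Hmga2, the architectural chromatin protein, read 4286.5 and 5021.0 on the E11.5 arrays, 3835.8 and 3256.9 on those of E12.5, 1188.9 and 1260.6 on those of E14.5, 176.0 and 139.2 on those of E16.5, and 84.2 and 65.6 on those of E18.5. Every stage lay wholly below the stage before it. The mean was 74.9 ± 13.2 at E18.5, against 4654 ± 519 at E11.5 (SD, n = 2 each). That was a change of -5.69 log2 units (SE 0.18), or 51.5-fold lower, with a limma adjusted p of 2.43e-10.

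Only 3 of the 10916 tested genes fell further, and all are embryonic globins, Hbb-bh1, Hba-x and Hbb-y. The decline of Hmga2 was not even. The first day gave -0.39 log2 units in E12.5 against E11.5 (adjusted p = 0.35). E14.5 against E12.5 gave -1.52 (adjusted p = 0.000281). The largest step was E16.5 against E14.5, at -2.85 (adjusted p = 1.23e-06). The last step, E18.5 against E16.5, gave -0.93 and did not pass (adjusted p = 0.155), although its arrays did not overlap. Per day, these steps came to -0.39, -0.76, -1.42 and -0.47 log2 units.

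The other Hmga2 probe sets moved alike where they were bright. Probe set 1422851_at had a mean of 28.4 at E18.5, against 4668 at E11.5, a change of -6.70 log2 units. Probe set 1450781_at had a mean of 32.15 at E18.5, against 2727 at E11.5, a change of -5.85. The fourth, 1446196_at, stayed below the signal of 49.1 that was needed for testing on average, and had means of 45.75, 81.35, 70.65, 22.15 and 16.2 from E11.5 to E18.5. It is also the one Hmga2 set whose mean was not highest at E11.5. The used set ends in _s_at, a label for probes that may match related transcripts, and 1422851_at and 1450781_at do not. Without sets of that kind Hmga2 was 104-fold lower in E18.5 against E11.5, with the mean of all its sets 27.7-fold, and with 64 in place of 16 added to the signal 33.9-fold.

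Igf2bp1, an mRNA-binding protein of the embryo, read 398.9 and 352.3 on the E11.5 arrays, 371.1 and 332.4 on those of E12.5, 137.5 and 148.8 on those of E14.5, 72.6 and 87.2 on those of E16.5, and 44.8 and 82.1 on those of E18.5. The arrays of E11.5 and E12.5 overlapped, as did those of E16.5 and E18.5, and a wide gap parted E12.5 from E14.5. The mean was 63.45 ± 26.4 at E18.5, against 375.6 ± 33.0 at E11.5 (SD, n = 2 each). The gene was 5.06-fold lower, a change of -2.34 log2 units (SE 0.21) with a limma adjusted p of 2.06e-06. It ranked 38th of 10916 by size of fall.

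Igf2bp1 lost most between E12.5 and E14.5, where the change was -1.21 log2 units in E14.5 against E12.5 (adjusted p = 0.00465). This step made up 51.6% of the whole change, earlier than the main step of Hmga2. E16.5 against E14.5 followed with -0.73 (adjusted p = 0.0424), a call that was lost in 4 of 9 other settings and in all 6 fits that left out an array of E12.5, E14.5 or E16.5. In those fits the adjusted p was 0.0537 and 0.0532 without replicate 1 or 2 of E12.5, 0.145 and 0.126 without those of E14.5, and 0.197 and 0.155 without those of E16.5. The call for E14.5 against E12.5 was lost without replicate 1 of E12.5 (adjusted p = 0.0585) or of E14.5 (adjusted p = 0.0576). The first and the last step gave -0.09 and -0.31 log2 units (adjusted p = 0.898 and 1). Of its other probe sets, 1459825_x_at changed by -2.03 and 1418761_at by -1.28 log2 units over the period, with means of 80.5 and 69.5 already at E14.5. In E16.5 against E14.5 they gave -0.02 and -0.16 (adjusted p = 0.969 and 0.714 in a limma fit of single probe sets). The used set did not pass this step in that fit either (adjusted p = 0.0634). The third other set, 1449210_at, stayed under the filter.

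Igf2bp3, a close relative of Igf2bp1, read 856.0 and 577.8 on the E11.5 arrays, 751.8 and 500.8 on those of E12.5, 462.7 and 428.1 on those of E14.5, 327.1 and 341.0 on those of E16.5, and 324.1 and 308.9 on those of E18.5. The early arrays were spread widely and E12.5 overlapped E11.5, but every array of E16.5 and E18.5 lay below all earlier ones. The mean was 316.5 ± 10.8 at E18.5, against 716.9 ± 197 at E11.5 (SD, n = 2 each). The gene was 2.16-fold lower, a change of -1.11 log2 units (SE 0.22) with a limma adjusted p of 0.00168.

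No single step of Igf2bp3 passed. E12.5 against E11.5 gave -0.19 log2 units (adjusted p = 0.763), E14.5 against E12.5 gave -0.45 (0.23), E16.5 against E14.5 gave -0.40 (0.255) and E18.5 against E16.5 gave -0.07 (1). The loss was spread over the first 3 steps, which held 17.2%, 40.4% and 35.7% of it. All 5 other Igf2bp3 probe sets fell too, by -0.63 to -1.62 log2 units in E18.5 against E11.5. In the fit of single probe sets, the step E16.5 against E14.5 passed for 1433731_at (adjusted p = 0.0494) and 1422611_s_at (adjusted p = 0.0431).

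Lin28a, which blocks let-7 maturation, was a dim probe set with another shape. It read 53.4 and 84.4 on the E11.5 arrays, 88.2 and 86.3 on those of E12.5, 97.1 and 123.7 on those of E14.5, 31.7 and 41.4 on those of E16.5, and 27.6 and 23.7 on those of E18.5. All arrays of E16.5 and E18.5 lay below all earlier arrays, and the E14.5 arrays were the brightest. The mean was 25.65 ± 2.76 at E18.5, against 68.9 ± 21.9 at E11.5 (SD, n = 2 each). The gene was 2.01-fold lower, a change of -1.005 log2 units (SE 0.24) with a limma adjusted p of 0.00716. That call was lost without replicate 2 of E11.5 (adjusted p = 0.0575) or replicate 2 of E18.5 (adjusted p = 0.0504).

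Neither early step of Lin28a passed, with 0.31 log2 units in E12.5 against E11.5 (adjusted p = 0.633) and 0.28 in E14.5 against E12.5 (adjusted p = 0.509). The drop fell in E16.5 against E14.5, at -1.26 log2 units (adjusted p = 0.00594), and was lost without replicate 1 of E16.5 (adjusted p = 0.0557). The last step gave -0.33 (adjusted p = 1). Its second probe set, 1421749_at, had means of 109.0, 103.8, 82.5, 20.45 and 9.05 from E11.5 to E18.5 and so did not show the high at E14.5, where its arrays read 48.2 and 116.8. That set changed by -2.36 log2 units in E18.5 against E11.5 (adjusted p = 0.000354 over 18206 probe sets). Its mean log2 value of 6.036 was just above the filter of 6.024. Every E16.5 and E18.5 array of both sets read under the filter signal of 49.1, so both passed it through their earlier arrays. Both Lin28a sets dropped between E14.5 and E16.5, and they differed before that. With the mean of both sets, the gene was 3.21-fold lower in E18.5 against E11.5.

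**Figure D2:**
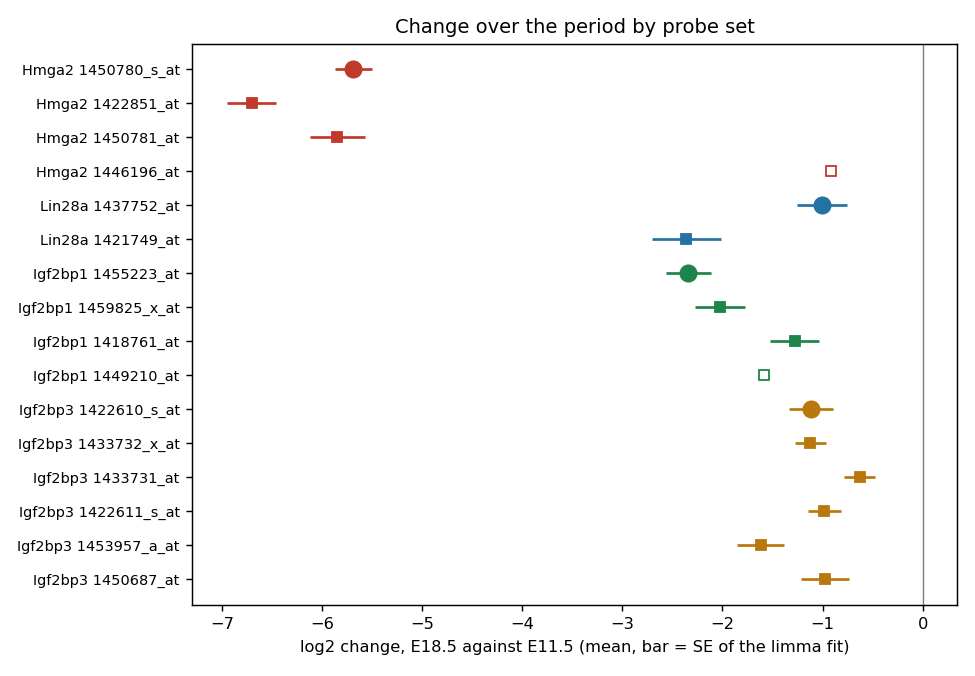
Change in E18.5 against E11.5 (log2 units, bars are the SE of the limma fit) for all 16 probe sets, with large circles for those used, squares for the others and open squares for the 2 under the filter. Values run from -6.70 for an Hmga2 set to -0.63 for an Igf2bp3 set, and none is above 0.

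Of the 16 probe sets of these genes, 14 were above the filter, and all 14 fell in E18.5 against E11.5 in a fit over 18206 probe sets that was added after the data had been seen. The share of all probe sets that fell in that fit is not given here, and in the fit of genes it was 11.0%. The filter used the mean over all arrays, so a set can pass it through bright early arrays. At E18.5 the Hmga2 sets 1422851_at and 1450781_at read 24.3 and 32.5, and 39.5 and 24.8, under the filter signal of 49.1. Sets of 1 gene share their RNA and are not separate evidence.

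The timing can be read step by step across the genes. In E12.5 against E11.5 none of the 4 genes fell, beside 1.32% of tested genes, and the estimate was below 0 for 3 of them and above 0 for Lin28a. In E14.5 against E12.5, Hmga2 and Igf2bp1 fell, beside 1.73% of tested genes. In E16.5 against E14.5, Hmga2, Igf2bp1 and Lin28a fell, beside 3.12% of tested genes, though the other tested probe sets of Igf2bp1 did not pass. In E18.5 against E16.5 none of the 4 genes fell, and 1 of 10916 tested genes did, or 0.00916%. With the used sets, the mean fell at each of the 4 steps for Hmga2, Igf2bp1 and Igf2bp3, and not for Lin28a. It did so for 3.64% of tested genes. Other probe sets differed. The Lin28a set 1421749_at fell at each step, by -0.07, -0.37, -1.35 and -0.58 log2 units. Igf2bp1 set 1459825_x_at gave 0.04 in E12.5 against E11.5, and 1418761_at gave 0.02 in E18.5 against E16.5. Igf2bp3 set 1433732_x_at fell at each step. However, 1433731_at, 1422611_s_at and 1453957_a_at gave 0.134, 0.001 and 0.074 in E18.5 against E16.5, and 1450687_at gave 0.207 in E12.5 against E11.5.

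E16.5 and E12.5 were scanned on the same day, so this comparison has no difference in scanning day. All 4 genes fell in E16.5 against E12.5, beside 10.2% of tested genes. The changes were -4.36 log2 units for Hmga2 (adjusted p = 4.47e-09), -1.94 for Igf2bp1 (2.25e-05), -0.98 for Lin28a (0.00922) and -0.85 for Igf2bp3 (0.0109). The Lin28a call was lost without replicate 1 of E12.5 (adjusted p = 0.0607) or of E16.5 (0.0748). The Igf2bp3 call was lost without replicate 1 of E12.5 (adjusted p = 0.148), and without replicate 1 (0.0606) or 2 (0.0633) of E16.5. E18.5 and E11.5 also shared a scanning day, but both comparisons cross the change of fluidics modules. No successive step lay within 1 scanning day, and the part of scanning day in these steps was not tested.

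**Figure D3:**
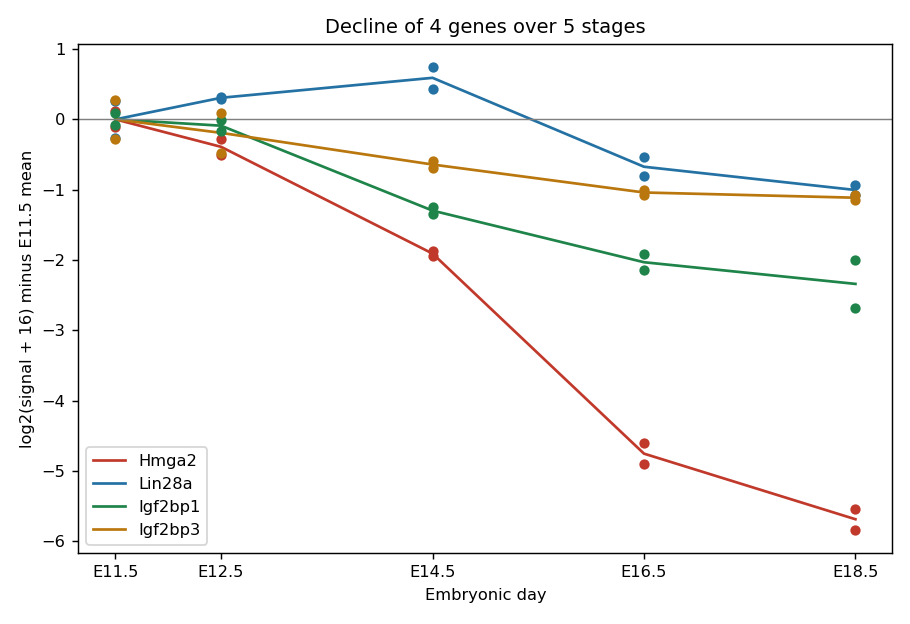
Mean log2(signal + 16) of each gene minus its own E11.5 mean, against embryonic day, with dots for single arrays. Hmga2 ends at -5.69, Igf2bp1 at -2.34, Igf2bp3 at -1.11 and Lin28a at -1.005, and only the Lin28a line lies above 0 at E12.5 and E14.5.

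The rate of decline was compared between genes as the difference of their slopes over days, on log2(signal + 16). Levels still enter, because the added 16 leaves a dim gene less room to fall. Means at E11.5 were 4654 for Hmga2, 716.9 for Igf2bp3, 375.6 for Igf2bp1 and 68.9 for Lin28a. Where the dimmer gene of a pair declined more slowly, the test cannot separate a slower decline from a lower starting level. Slopes were -0.88 ± 0.06 log2 units per day for Hmga2, -0.37 ± 0.04 for Igf2bp1, -0.18 ± 0.06 for Lin28a and -0.17 ± 0.03 for Igf2bp3 (SE, 10 arrays). Each of the 6 pairs was tested with a two-sided exact permutation test over 113400 arrangements of the stage labels, with Benjamini-Hochberg adjustment. Hmga2 had a steeper slope than Lin28a by 0.70, than Igf2bp1 by 0.51 and than Igf2bp3 by 0.71 log2 units per day. Each had an adjusted exact p of 7.055e-05, and in each pair Hmga2 was the brighter gene at E11.5. Igf2bp1 declined faster than Igf2bp3 by 0.20 log2 units per day (adjusted exact p = 0.001045).

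With the used sets, Lin28a and Igf2bp3 could not be separated, with a difference of -0.01 ± 0.07 log2 units per day (SE, adjusted exact p = 0.9125). That does not show equal rates. In E18.5 against E11.5 the second Lin28a set, 1421749_at, changed by -2.36 log2 units and the used set by -1.005. The slope of the second set was not tested alone. Lin28a declined more slowly than Igf2bp1 by 0.19 (adjusted exact p = 0.04726), but this call was lost without either array of E11.5, E12.5 or E16.5 or replicate 1 of E18.5, with adjusted exact p from 0.07344 to 0.1354. It was also lost with 1 in place of 16 added to the signal (0.17, adjusted exact p = 0.1064), and with the mean of all probe sets the difference was -0.002386. Without the 2 arrays of E18.5, the stage farthest from the middle, Hmga2 still had the steeper slope. The differences were 0.83 from Lin28a, 0.51 from Igf2bp1 and 0.74 from Igf2bp3, in log2 units per day.

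The day at which the mean had passed the midpoint between its E11.5 and E18.5 values, read along straight lines between stages, gives 1 number per gene for the timing. It was 14.12 for Igf2bp3, 14.29 for Igf2bp1, 15.16 for Hmga2 and 16.23 for Lin28a. Leaving out single arrays moved it between 13.47 and 14.77 for Igf2bp3 and between 14.0 and 14.62 for Igf2bp1, so these neighbours overlap. It stayed between 15.11 and 15.21 for Hmga2 and between 16.02 and 16.44 for Lin28a. Over the sets above the filter, read after the data had been seen, it ran from 13.43 to 14.29 for Igf2bp1, 13.96 to 14.92 for Igf2bp3, 14.9 to 15.27 for Hmga2 and 15.6 to 16.23 for Lin28a. The ranges of Igf2bp3 and Hmga2 overlap over probe sets, and that of Lin28a overlaps with none of the other 3. The Lin28a bound of 15.6 comes from 1421749_at, whose E14.5 arrays read 48.2 and 116.8. Single arrays were left out only for the used sets, so how far 1 array moves this bound was not tested.

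Over the 10 arrays, which share their stages, the log2 values of Hmga2 correlated with those of Igf2bp1 at Pearson r = 0.95 and with those of Igf2bp3 at 0.90. Igf2bp1 and Igf2bp3 correlated at 0.92. The used Lin28a set stood further off, at 0.81 with Hmga2, 0.66 with Igf2bp1 and 0.57 with Igf2bp3. The second Lin28a set, 1421749_at, which did not show the high at E14.5, was not part of these correlations. These values describe the arrays and were not tested.

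Among 1949 tested genes whose stage means spanned at least 1 log2 unit, those most like each gene over the 10 arrays were listed by Pearson r. For Hmga2 they were the embryonic globin Hba-x (r = 0.995), Cpne8 (0.987), the transcription factor Bcl11a (0.984), the adhesion protein gene Tes (0.984) and Rnf150 (0.983). For Igf2bp1 they were the replication helicase gene Mcm2 (0.987), the cyclin gene Ccne1 (0.982), the phosphatase gene Dusp9 (0.982), Nmral1 (0.981) and Ranbp1 (0.981). For Igf2bp3 they were Limd2 (0.971), the histone chaperone Nasp (0.963), the proteasome subunit Psma7 (0.962), Nhp2 (0.962) and the chromatin assembly subunit Chaf1b (0.960). For Lin28a they were the homeobox gene Six4 (0.967), Zcchc12 (0.953), St6galnac3 (0.951), the E-cadherin gene Cdh1 (0.948) and the netrin receptor gene Unc5c (0.946).

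These genes were picked for likeness, so a shared shape is built in. Of the Lin28a neighbours, Zcchc12, Cdh1 and Unc5c had their highest mean at E14.5, and Six4 and St6galnac3 at E12.5. Zcchc12 had means of 156.6, 227.4, 281.6, 87.5 and 69.9 from E11.5 to E18.5, and Cdh1 had 85.85, 157.9, 161.2, 40.25 and 39.8.

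Germ cell markers were set beside Lin28a, and they did not move as one. Of 14 listed markers 12 had a probe set and none was listed at 0, and their summed signal over the 5 stages, youngest first, was 2234–2425, 3317–4239, 5389–6527, 4243–5107 and 3247–3780. In E18.5 against E11.5, 6 of 10 tested markers fell and 3 rose, with a median of -1.07 log2 units, beside 11.0% of all tested genes that fell and 17.1% that rose. Those that fell were the pluripotency-linked genes Dppa3, Sox2, Nanog, Pou5f1 and Utf1, and Kit. Dppa3 had signals of 79.4 and 50.7 at E18.5, against 733.7 and 570.4 at E11.5, and 1814.1 and 1942.5 at E14.5. Those that rose were Ddx4, Dazl and Mael, genes of later germ cells, and Mael had signals of 1430.5 and 1163.4 at E18.5, against 9.1 and 28.1 at E11.5. In E16.5 against E14.5, where Lin28a dropped, 3 of the 10 fell, 1 rose and 6 did not pass, beside 3.12% of all tested genes that fell and 7.70% that rose. Dppa3 fell by 3.53 log2 units (adjusted p = 5.17e-06), Sox2 by 2.49 (5.15e-05) and Nanog by 1.69 (0.00133), and Mael rose by 1.23 (0.00867). Pou5f1 gave -0.72 (0.0786), Dazl gave -0.69 (0.0771), Utf1 gave -0.01 (0.981), Kit gave -0.02 (0.969), Ddx4 gave 0.37 (0.37) and Dnd1 gave 0.56 (0.143). The part of germ cell number or state in the Lin28a values was not tested.

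**Figure D4:**
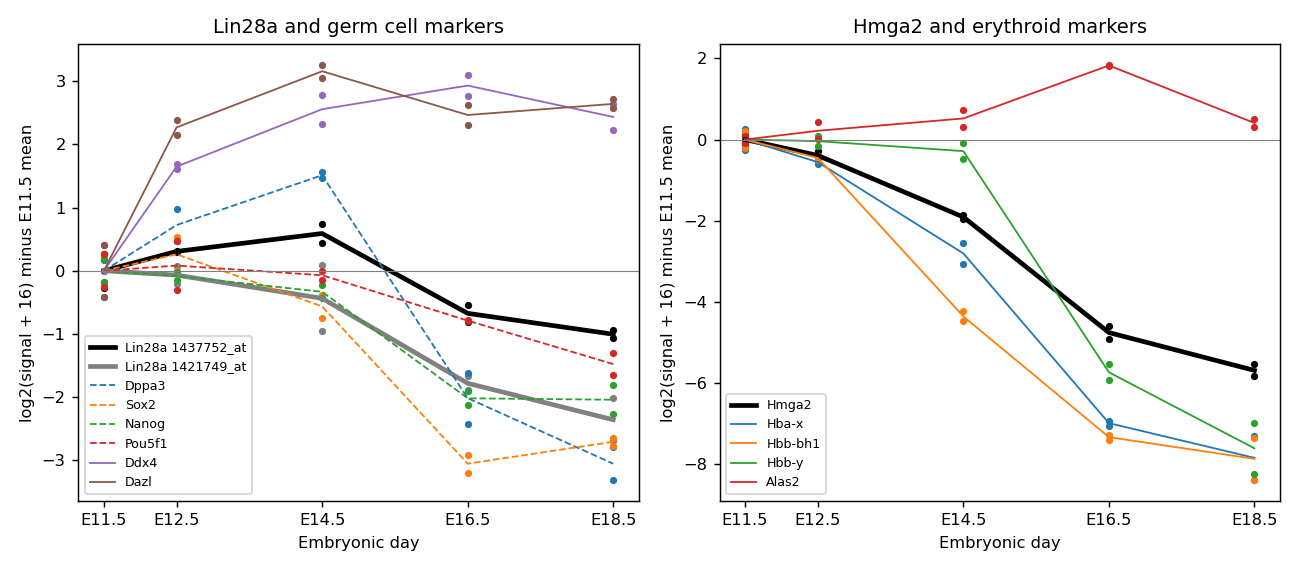
Log2(signal + 16) minus the E11.5 mean, against embryonic day, for both Lin28a probe sets with 6 germ cell markers and for Hmga2 with 4 erythroid markers, with lines for means and dots for arrays. Lin28a drops after E14.5, as do Dppa3, Sox2 and Nanog. Pou5f1 and Dazl gave -0.72 and -0.69 in E16.5 against E14.5 and Ddx4 gave 0.37, none of which passed. Ddx4 and Dazl stay above their E11.5 means. Hmga2 follows Hba-x, but not Alas2, nor Hbb-y up to E14.5.

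Erythroid markers were set beside Hmga2, and they did not move as one. The summed signal of the 4 of 5 erythroid markers with a probe set was 23920–27538 on the E11.5 arrays and 20423–22366 on those of E12.5. It was 10070–13005 on those of E14.5, 837–884 on those of E16.5 and 227–355 on those of E18.5. None was listed at 0. The embryonic globins Hbb-bh1, Hba-x and Hbb-y fell, with changes of -7.86, -7.84 and -7.60 log2 units in E18.5 against E11.5. Hbb-y gave only -0.04 in E12.5 against E11.5 and -0.25 in E14.5 against E12.5 (adjusted p = 0.973 and 0.66). Hbb-bh1 and Hba-x gave -3.90 and -2.25 in E14.5 against E12.5. Alas2, the first enzyme of heme synthesis in red cells, gave 0.41 log2 units (adjusted p = 0.136) and was highest at E16.5, at 576.3 and 591.0. Emx2, a gene of the early urogenital ridge listed among the duct markers, had signals of 92.9 and 102.5 at E18.5, against 1580.3 and 1113.9 at E11.5. The duct marker Pax8 did not pass, at -0.49 log2 units (adjusted p = 0.145). Ret, under the filter, had a mean of 35.35 at E18.5, against 31.65 at E11.5. The part of blood or mesonephric cells in the Hmga2 values was not tested.

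Cell cycle genes were set beside the Igf2bp genes. Of 16 tested S phase genes, 12 fell and none rose in E18.5 against E11.5, beside 11.0% and 17.1% of all tested genes. Their median was -0.65 log2 units, and that of all tested genes was 0.02. Their summed signal was 12288–13353 at E18.5, against 19865–24433 at E11.5. Mcm2 had signals of 364.5 and 466.4 at E18.5, against 967.2 and 858.3 at E11.5. Of 8 tested G2 and M phase genes, 1 fell in E18.5 against E11.5, Top2a, a share near that of all tested genes, and the median was -0.23. In E16.5 against E12.5, 4 of these 8 fell with a median of -0.50, and 14 of 16 S phase genes fell with a median of -0.88, beside 10.2% of all tested genes. Whether fewer dividing cells bear on the Igf2bp values was not tested.

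The let-7 arm was read from its processing genes, hosts and targets, with 11.0% of all tested genes falling and 17.1% rising in E18.5 against E11.5. Lin28b, the partner of Lin28a, read 4.6 and 3.2 at E18.5, against 4.3 and 8.5 at E11.5, and was below the filter at every stage. Of 15 tested let-7 processing genes, 12 did not pass. Tarbp2, a partner of Dicer, fell by 0.70 log2 units (adjusted p = 0.0119). The Argonaute gene Ago4 rose by 0.87 (adjusted p = 0.0254) and Tut7, which adds uridines to precursors, by 0.51 (adjusted p = 0.0298). Drosha gave -0.49 (adjusted p = 0.0721), Dgcr8 gave -0.40 (0.112) and Dicer1 gave -0.35 (0.141).

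Few let-7 host transcripts could be read. Huwe1 spans Mirlet7f-2 and Mir98 in the RefSeq table and gave 0.03 log2 units (adjusted p = 0.915). Mir99ahg, whose human counterpart hosts a let-7 gene, had signals of 194.6 and 153.5 at E18.5, against 73.4 and 79.3 at E11.5, and rose by 1.03 log2 units (adjusted p = 0.00827). A host's level is not the level of the microRNA.

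Of 24 other let-7 targets tested, 10 fell, 3 rose and 11 did not pass, with a median of -0.44 log2 units, beside 11.0% of all tested genes that fell and 17.1% that rose. Cdc34, a ubiquitin-conjugating enzyme, had signals of 279.2 and 297.9 at E18.5, against 840.4 and 677.0 at E11.5, and fell by 1.34 log2 units (adjusted p = 6.05e-05). Dusp9 fell by 1.62 (7.23e-05), the cyclin gene Ccnd1 by 1.18 (0.000174), Nme6 by 1.09 (0.000594), Igdcc3 by 1.08 (0.0007) and Mycn by 1.04 (0.00166). Ccnd2, another cyclin gene, rose by 1.17 (adjusted p = 0.00187), and the insulin receptor gene Insr rose by 0.81 (0.00534). Myc gave 0.10 (adjusted p = 0.78). E2f5 fell by 1.30 (limma adjusted p = 0.00146). None fell as far as Hmga2 (-5.69) or Igf2bp1 (-2.34). Dusp9, Cdc34, E2f5 and Ccnd1 fell further than Igf2bp3 (-1.11) and Lin28a (-1.005).

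**Figure D5:**
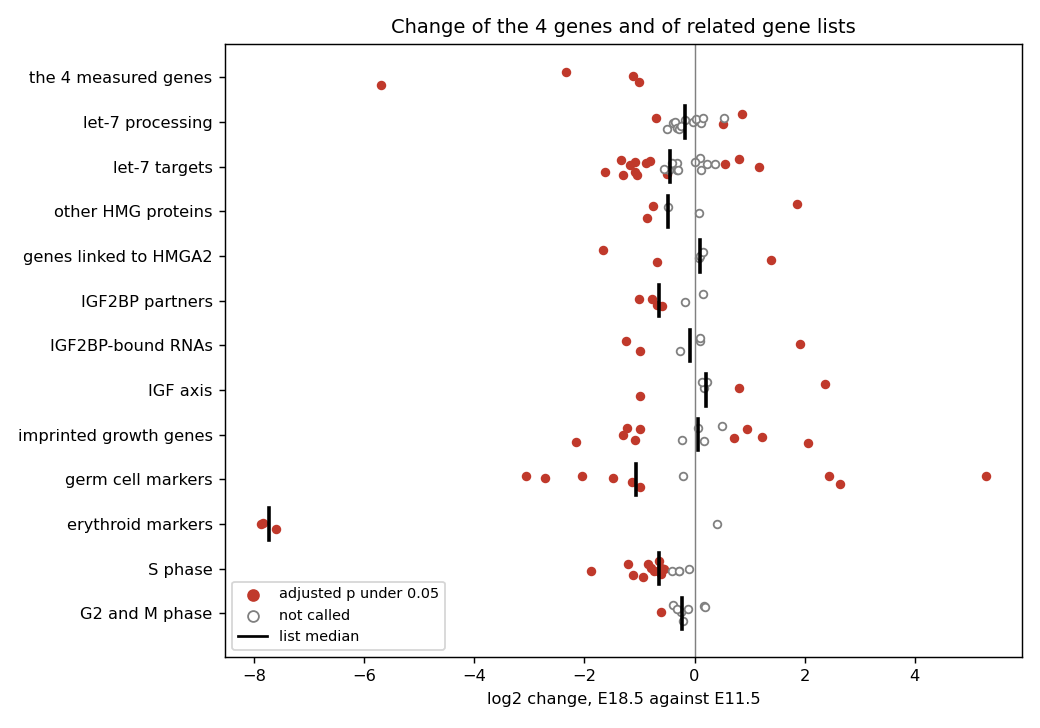
Change in E18.5 against E11.5 (log2 units) for the 4 measured genes and for the tested genes of 12 related lists, with filled dots for an adjusted p under 0.05, open dots for the rest and bars for list medians, and with small random vertical offsets. Of 24 let-7 targets 10 fell and 3 rose, and the 3 dots near -8 are embryonic globins.

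The protein families around the measured genes did not move as one. Among 5 tested HMG genes outside the HMGA family, the nucleosome-binding gene Hmgn3 rose by 1.87 log2 units (adjusted p = 8.29e-06), with signals of 1383.4 and 1029.1 at E18.5, against 293.1 and 339.2 at E11.5. Hmgn5 fell by 0.86 (0.00146) and Hmgb2 by 0.76 (0.0169). Hmgn1 gave -0.48 (0.0647) and Hmgb3 gave 0.08 (0.737). Of 6 tested genes linked to HMGA2, Cdkn1a fell by 1.66 and Ccnb2 by 0.69, while the tumour suppressor gene Rb1 rose by 1.39 (adjusted p = 0.000161). E2f1, Ccna2 and Jund did not pass, at 0.16, 0.11 and 0.09. Of all tested genes 11.0% fell and 17.1% rose.

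Of 6 proteins known to bind RNA together with IGF2BP, 4 fell in E18.5 against E11.5 and none rose, beside 11.0% and 17.1% of all tested genes. Ybx1 fell by 1.01 log2 units (adjusted p = 0.000797), Elavl1 by 0.78 (0.0141), Hnrnpu by 0.69 (0.00754) and Pabpc1 by 0.59 (0.0115). Syncrip gave 0.15 (0.572) and Dhx9 gave -0.18 (0.532). Among 6 tested mRNAs known to be bound by IGF2BP proteins, Igf2 fell by 0.98 (adjusted p = 0.00061), with signals of 2403.8 and 2468.6 at E18.5, against 4612.2 and 5058.6 at E11.5. Actb, which encodes β-actin, fell by 1.25 (0.00242), and Cd44, a cell surface receptor, rose by 1.92 (4.77e-05). Ctnnb1, Myc and Btrc did not pass, at -0.27, 0.10 and 0.11.

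Growth factor genes split by member. Igf1 had signals of 1930.4 and 2136.6 at E18.5, against 331.7 and 433.6 at E11.5, and rose by 2.37 log2 units (adjusted p = 3.6e-07) as Igf2 fell. Igf1r gave 0.22 (0.551), Igf2r gave 0.18 (0.59) and Irs1 gave 0.13 (0.604). Of 13 tested imprinted growth genes, 4 rose and 5 fell, beside 17.1% and 11.0% of all tested genes. The cell cycle inhibitor gene Cdkn1c fell by 2.16 (adjusted p = 1.23e-06), Peg3 by 1.22 (5.25e-05) and Slc38a4, an amino acid transporter gene, by 1.30 (9.08e-05). Dlk1, which encodes a membrane protein, rose by 2.05 (5.48e-05).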

How the data were processed

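The authors deposited 1 linear intensity per probe set and array for 45101 probe sets of Affymetrix Mouse430_2 arrays. Per the labels' protocols, Trizol was used for RNA extraction and biotin as the label. What software and scaling made the values is not given in the sources used here. Every deposited column had a mean of 125 once 2% of probe sets were trimmed from each end. The remaining deposited files hold scanner and fluidics settings of no expression unit, per the file headers, used for array type, scanning day and module.

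Names came from the platform annotation, updated through a RefSeq gene table, and 932 probe sets with several symbols were not used. The brightest probe set by mean log2 value stood for each gene. The 10916 genes above the 40th percentile of that mean, a signal of 49.1, were tested.

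Values were analysed as log2(signal + 16) in limma 3.58.1 (R 4.3.3), with stage as the term over all 10 arrays, eBayes with a trend, and Benjamini-Hochberg adjustment. The prior and residual degrees of freedom were 8.59 and 5. Slopes were compared by exact permutation for 6 pairs of genes; 15 were planned, but 2 genes had no probe set of their own. The smallest p this can give is 1.764e-05. Scripts were tested on simulated data, with Python 3.11.15, pandas 2.3.3 and numpy 2.4.6.

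The text names the chosen genes, the 5 genes most correlated with each, and listed genes. The rule allowed up to 4 per list by adjusted p, and all of the shorter let-7, HMG, IGF2BP and IGF lists. Not every gene it allows is named, and further ones were named after their values were seen. Genes and lists were chosen with earlier results of these data known. Alternatives were 2 other pseudocounts, no filter or a stricter one, quantile normalization, other probe set rules, fits of 4 arrays, a block for replicate number and leaving out each array. Promoter windows and microRNA sequences are from RefSeq tables of GRCm38.p6.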

Additional observations from a re-analysis of the deposited data

How the results depend on the processing

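All 4 genes kept their direction in E18.5 against E11.5 under every alternative run, and Lin28a lost its call in 2 fits without an array. Lin28a was not tested at the 60th percentile filter. The fold of Hmga2 was 51.5, and 61.6 or 33.9 with a pseudocount of 1 or 64, 27.7 when its probe sets were averaged and 104 without _x_at, _s_at and _a_at sets. Igf2bp3 in E16.5 against E14.5 passed with the mean of probe sets (adjusted p = 0.0451) and without such sets (0.0356). Directions turned only in values that had not passed, apart from the slope of Lin28a minus Igf2bp1, which came to -0.002386 with the mean of probe sets. These were Lin28a in E14.5 against E12.5 (-0.04226 with the mean of probe sets), Igf2bp3 in E18.5 against E16.5 (0.1338 without _x_at, _s_at and _a_at sets), Igf2bp3 in E12.5 against E11.5 (-0.4775 to 0.09358 over fits without an array), Igf2bp1 in E18.5 against E16.5 (-0.6533 to 0.03691 likewise), and Lin28a minus Igf2bp3 in slope (0.05204 with a pseudocount of 64, -0.07448 to 0.0204 without an array). The cause was not tested.

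Without an array, the number of the 4 genes that fell was 3 to 4 in E18.5 against E11.5, 1 to 2 in E14.5 against E12.5, 1 to 3 in E16.5 against E14.5 and 2 to 4 in E16.5 against E12.5. Counts of all genes that fell ranged over the same fits from 642 to 1361 in E18.5 against E11.5, 60 to 139 in E12.5 against E11.5, 23 to 323 in E14.5 against E12.5, 46 to 447 in E16.5 against E14.5, 0 to 2 in E18.5 against E16.5 and 368 to 1291 in E16.5 against E12.5. In E18.5 against E16.5 the count was 1, and 8 with a pseudocount of 64, 0 without a filter, 3 at the 60th percentile and 2 with the mean of probe sets, the replicate block or only 4 arrays. In E14.5 against E12.5 it was 189, and 118 without a filter, 121 with the mean of probe sets and 114 without _x_at, _s_at and _a_at sets. In E16.5 against E14.5 it was 341, and 197 at the 60th percentile. In E12.5 against E11.5 it was 144, and 68 with only 4 arrays. With replicate number as a block, 353 genes fell in E14.5 against E12.5 and 540 in E16.5 against E14.5, and no call of the 4 genes changed. The labels give the replicate numbers no shared preparation, so they were not used as pairs. Differences between replicates 1 and 2 correlated between stages at 0.004 to 0.366, over 0.1 in 6 of 10 pairs of stages. Replicates 1 and 2 of a stage were always on different fluidics modules, so the block also takes up module. Scanning day as a random block could not be estimated, since each stage lies within 1 day. Dim probe sets, Lin28a above all, limit the precision.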
